A study of Rattus norvegicus with 9 samples.

Results

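The comparison described here set rat cartilage progenitor cells at passage 9 against the same kind of cells at passage 3, by small RNA sequencing. It used 6 of the series' 9 libraries, 3 from passage 3 (P3) and 3 from passage 9 (P9), and the 635 rows of the deposited count table, out of 726, that carry an annotated rat miRNA name. Per the labels, the cells were primary cultures from the condylar cartilage of wild-type (WT) rats, and the groups differed in the time kept in vitro, passage 3 for the control and passage 9 for the replicative senescence group. The remaining 3 libraries, passage 3 cells exposed to flow fluid shear stress (FFSS), were not compared here. They entered the filters on low counts, the scaling between libraries and the estimate of the spread between libraries. No source used here says whether the 3 libraries of a group came from separate animals or cultures, so the p-values below measure the spread between these libraries, which may be technical.

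A miRNA is a short RNA that guides an Argonaute protein to messenger RNAs and lowers their output, and the bases near its 5' end, the seed, decide most of the pairing. Each miRNA is cut from 1 arm of a hairpin, named 5p or 3p. Hairpins often lie side by side in the genome and are then made from 1 primary transcript. Primary cells divide a limited number of times in culture before they stop for good, a state called replicative senescence, which the p53 and Rb pathways hold in place. The miR-34 genes are direct targets of p53, and many members of the miR-15/16 family restrain cyclins and other cell cycle genes. In cartilage the best known miRNA is miR-140, which the chondrocyte regulator Sox9 induces.

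Before the comparison, 1 library has to be set apart. The miRNA reads per library ran from 7522702 to 8862560 in the 6 libraries, and the 5 most abundant rows held 47.9% to 63.1% of them. Over the 439 rows tested, log2 levels correlated across miRNAs at 0.993 between P9 replicates 1 and 2, but at 0.952 and 0.959 between each of them and P9 replicate 3, whereas the P3 libraries correlated with each other at 0.983 to 0.991. With P3 replicates 1, 2 and 3, P9 replicate 3 correlated at 0.951, 0.965 and 0.940, so its highest correlation was with a P3 library. P9 replicates 1 and 2 correlated with the P3 libraries at 0.957 to 0.964. The cartilage marker list (miR-140-5p, miR-140-3p, miR-455-5p and miR-455-3p) was present in every library, at a summed level of 2590.0 to 7370.1 CPM (counts per 1e6 miRNA reads of the library). Lists of markers of other cell types were also read. Striated muscle markers summed to 583 CPM in P9 replicate 3 and to 212 to 251 CPM in the other 5 libraries. Of the 583, miR-1b held 462, while miR-499-5p was lowest in that library, at 49.0 CPM against 67.5 to 92.4, and miR-206-3p was at 9.78 CPM against 8.01 to 18.4. Nervous system markers summed to 2424 against 749 to 1568 CPM, nearly all of it from miR-128-3p and miR-129-5p. Epithelial markers summed to 25.2 CPM in P9 replicate 3 and to 75.4 to 102 CPM elsewhere, mostly through miR-203a-3p, at 7.95 CPM against 44.1 to 72.0. miR-205, miR-429 and miR-141-3p were at 0 reads in that library, the last with at most 9 reads elsewhere. miR-200b-3p was highest there, at 8.32 CPM against 3.27 to 5.97, and miR-200c-3p lay within the range of the others. Blood markers were high in P9 replicates 2 and 3, at 304 and 311 CPM, against 73.1 to 160.0 CPM in the other 4. Of the 5 blood markers tested, 3 had a positive and 2 a negative log2 fold change of P9 against P3. Endothelial markers summed to 490.5 CPM in P9 replicate 3 and to 275 to 406 CPM elsewhere, nearly all of it from miR-126a-3p. Liver markers, the arms of miR-122, summed to 22.9 CPM in P9 replicate 3 and to 3.43 to 11.7 CPM elsewhere. The part of these differences in the results was not tested, and the value of P9 replicate 3 is given by itself for most of the miRNAs that follow.

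The mature sequences of the miRNAs on which the results turn are printed 5' to 3' from RefSeq (table of assembly GRCr8), with the seed, bases 2 to 8, in capitals. Of the 635 annotated rows, 578 were matched to a RefSeq entry by name, and miR-452 and miR-598 had no entry there. The first set shares the seed of the miR-34 family on the 5p arm, and the next a seed on the 3p arm. miR-34a-5p, from a separate gene, is shown for comparison.
miR-34b-5p: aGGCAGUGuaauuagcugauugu
miR-34c-5p: aGGCAGUGuaguuagcugauugc
miR-34a-5p: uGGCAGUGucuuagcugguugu
miR-34b-3p: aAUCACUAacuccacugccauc
miR-34c-3p: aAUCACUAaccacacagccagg
The following pairs share a seed with each other. The first pair moved in opposite directions, the second in the same direction.
miR-146a-5p: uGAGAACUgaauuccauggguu
miR-146b-5p: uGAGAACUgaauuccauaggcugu
miR-221-3p: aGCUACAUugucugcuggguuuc
miR-222-3p: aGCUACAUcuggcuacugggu
Among the miRNAs that fell, miR-195-5p and miR-497-5p carry the miR-15/16 seed, and miR-708-5p carries that of miR-28-5p. miR-16-5p and miR-28-5p, chosen after their values were seen, are shown as the abundant miRNAs of the same seeds.
miR-195-5p: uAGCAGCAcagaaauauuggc
miR-497-5p: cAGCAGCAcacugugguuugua
miR-16-5p: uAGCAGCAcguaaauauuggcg
miR-708-5p: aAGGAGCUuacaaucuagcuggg
miR-28-5p: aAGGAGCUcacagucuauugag
miR-378a-3p and miR-3557-5p lie on opposite strands of 1 site and are reverse complements of each other over 21 bases, and the table gives them equal counts in every library.
miR-378a-3p: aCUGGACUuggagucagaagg
miR-3557-5p: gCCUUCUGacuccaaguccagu
The last set holds the other miRNAs with the largest changes, with miR-384-5p beside miR-30a-5p, whose seed it shares.
miR-592: aUUGUGUCaauaugcgaugaugu
miR-130b-5p: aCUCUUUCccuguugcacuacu
miR-384-5p: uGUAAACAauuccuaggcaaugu
miR-30a-5p: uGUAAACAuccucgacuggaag
miR-325-5p: cCUAGUAGgugcucaguaagugu
miR-143-3p: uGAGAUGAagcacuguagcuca
miR-298-5p: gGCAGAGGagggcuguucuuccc
miR-1247-3p: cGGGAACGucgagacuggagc

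At passage 9 a small set of miRNAs had changed, most of them by at least 2-fold, while the greater part of the profile did not pass the test. Of 439 rows tested with edgeR's quasi-likelihood test, 17 (3.87%) were higher in P9 and 15 (3.42%) lower at a Benjamini-Hochberg adjusted p under 0.05, together 32 (7.29%), all of them annotated. These 32 are referred to as called. The p53-linked miR-34b and miR-34c, miR-592, miR-130b, miR-384, miR-325 and the abundant miR-143 led the rise, and miR-1247, miR-146a, miR-195, miR-497, miR-298, miR-708 and miR-378a led the fall. Of the 32, 31 changed by at least 2-fold, the exception being miR-221-3p, and 76 of the 439 had an unadjusted p under 0.05. The median log2 fold change over all rows tested was 0.06. In CPM of the whole library, the 3 P9 values lay wholly above the 3 P3 values for 49 rows (11.2%) and wholly below for 62 (14.1%). All 32 called miRNAs were among these. Since the libraries come from whole cultures, fewer cells of a kind and less RNA per cell cannot be told apart in any of the results.

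**Figure D1:**
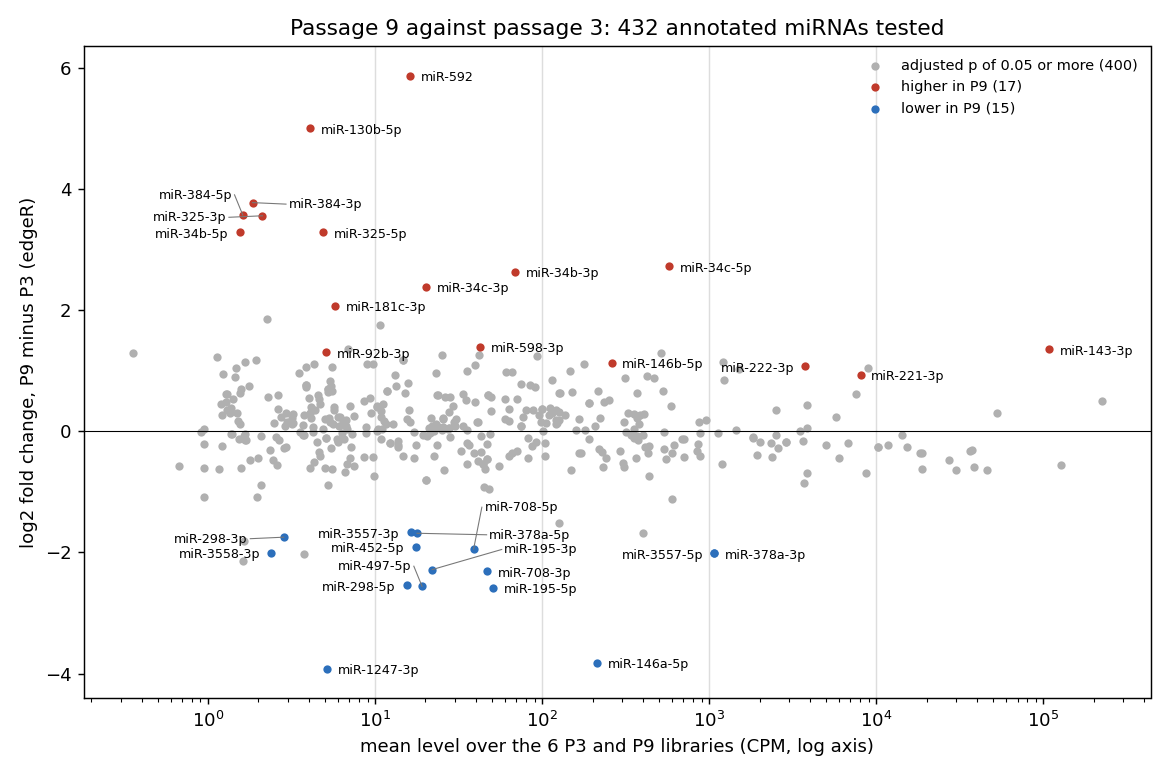
The log2 fold change of P9 against P3 (edgeR, vertical axis) is plotted against the mean level over the 6 libraries in CPM (log axis) for the 432 annotated miRNAs tested, with vertical lines at the class limits of 10, 100, 1000 and 10000 CPM. The 17 red and 15 blue points are the called miRNAs; miR-592 stands highest at 5.87 and miR-1247-3p lowest at -3.92, and miR-143-3p is the called miRNA with the most reads.

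Leaving out P9 replicate 3 made the list longer. It had been set apart for values unlike those of P9 replicates 1 and 2, so a smaller spread in P9 without it was built in. Calls gained without it, here and below, are descriptions that rest on P9 replicates 1 and 2 alone. Without that library 451 rows were tested, and 26 (5.76%) were called higher and 25 (5.54%) lower. Of the 32 called with all libraries, 30 were called again, and the additions were 20 annotated miRNAs and 1 predicted row, which was lower (-3.50, adjusted p = 0.00947). In every one of the 32, P9 replicate 3 lay on the called side of the P3 mean, but in 18 it lay nearer to that mean than both other P9 libraries, and in 7 farther from it. With only the P3 and P9 libraries fitted and P9 replicate 3 left out, 50 were called higher and 46 lower. The calls also depended on the number of libraries. Of the 32, 14 were kept whichever of the 9 libraries was left out, and 18 were lost in at least 1 such fit. The number called higher was 8, 11 and 9 on leaving out P3 replicates 1, 2 and 3 in turn. The number called lower was 8 and 7 on leaving out P3 replicates 1 and 3, and 8 and 9 on leaving out P9 replicates 1 and 2. The libraries concerned are named with each miRNA below.

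**Figure D2:**
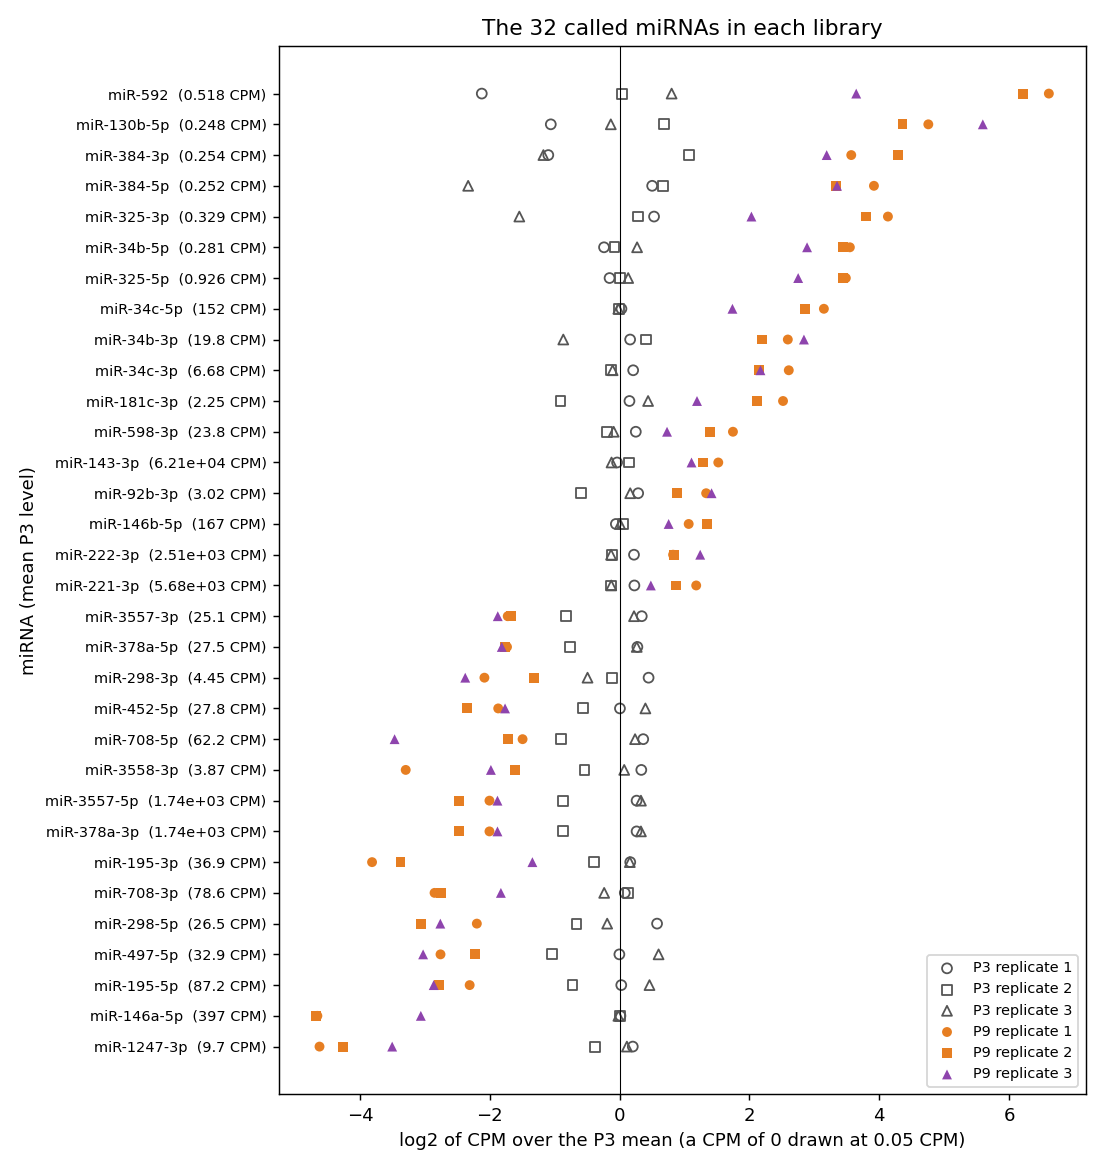
Each row is 1 of the 32 called miRNAs, with its mean P3 level in CPM beside the name, and each symbol is 1 library's CPM over that mean on a log2 axis. Open grey symbols are P3, orange filled symbols P9 replicates 1 and 2, and purple triangles P9 replicate 3; in all 32 rows the P9 symbols lie on 1 side of the P3 symbols, with P9 replicate 3 often the P9 library nearest to P3.

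The miR-34b and miR-34c hairpins, which are neighbours in 1 cluster and are known as p53 targets that slow the cell cycle, rose on all 4 arms. miR-34c-5p was the most abundant of them. It stood at 155, 151 and 150.3 CPM in P3 replicates 1 to 3 and at 1349.9, 1108 and 508 CPM in P9 replicates 1 to 3. The P9 values were all above the P3 values, with P9 replicate 3 the lowest of the 3. This was a log2 fold change of 2.72 (SE 0.42, adjusted p = 0.00105). miR-34b-3p stood at 22.1, 26.3 and 10.8 CPM in P3 and at 119, 90.4 and 141 CPM in P9, again without overlap, but here with P9 replicate 3 the highest. Its log2 fold change was 2.63 (SE 0.37, adjusted p = 0.000652). The level of miR-34c-3p was 6.68 ± 0.906 CPM in P3 and 33.5 ± 6.24 CPM in P9 (mean ± SD, n = 3 libraries, as in all values given in this form), a log2 fold change of 2.38 (adjusted p = 0.000502). miR-34b-5p was rare, with 7 reads in the 3 P3 libraries together and 66 in P9 (log2 fold change 3.29, adjusted p = 0.0134). The call of miR-34b-5p alone was lost when any 1 of the P3 libraries or P9 replicate 2 was left out (adjusted p up to 0.0979).

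The rest of the miR-34 family did not pass the test. miR-34a-5p, the family member that comes from a gene of its own, stood at 349, 287 and 418 CPM in P3 and at 569, 506 and 169 CPM in P9. P9 replicates 1 and 2 lay above all P3 libraries and P9 replicate 3 below all of them (log2 fold change 0.26, SE 0.44, adjusted p = 0.837). miR-449a-5p, of the same seed, had 5.71, 2.53 and 6.66 CPM in P3 and 25.1, 19.4 and 5.01 CPM in P9 (log2 fold change 1.76, adjusted p = 0.0707). It passed without P9 replicate 3, at a log2 fold change of 2.18 (adjusted p = 0.00203), with no filter (0.0183) and with DESeq2 (0.0136). Of the list of 9 family members, 6 were tested, 4 were called higher and none lower, where 3.87% of all rows were called higher and 3.42% lower. All 6 had a positive log2 fold change under each of the 5 scalings tried (median 2.50, against 0.06 over all rows tested). The summed level of all miRNAs with this 5p seed was 510.0 ± 67.1 CPM in P3 and 1424 ± 659 CPM in P9, without overlap, as a description. The share of miR-34c-5p in that sum was 26.1% to 34.2% in the P3 libraries and 67.6% to 74.2% in the P9 libraries, and that of miR-34a-5p 65.0% to 72.6% and 24.7% to 30.9%.

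The largest rises were in miRNAs that P3 cells hardly contained. Of the groups compared, only P9 held enough reads to carry such rows past the filter on low counts. A fall could hardly have been called for them, so the direction of these calls was favoured in advance. miR-592, which in RefSeq GRCr8 lies within Grm8, a glutamate receptor gene, had 1, 4 and 8 reads in P3 and 386, 303 and 53 reads in P9. In CPM these were 0.119, 0.532 and 0.903 against 50.7, 38.5 and 6.48, so P9 replicate 3 held several times less than the other P9 libraries and still more than any P3 library. Its log2 fold change, the largest of all, was 5.87 (SE 0.82, adjusted p = 0.000652). miR-130b-5p had 1, 3 and 2 reads in P3 and 51, 40 and 98 in P9, with P9 replicate 3 the highest (log2 fold change 5.00, SE 0.62, adjusted p = 0.000502). Its 3p arm, the usual guide strand of its family, was under the filter on low counts, with 1 read in P3 and 22 in P9. The neighbouring hairpin miR-301b was also under the filter and was looked at after the values of miR-130b were seen. miR-301b-5p had 0 reads in P3 and 22 in P9, at least 7.69-fold higher against a limit of 3 counts over the P3 group, and miR-301b-3p had 0 and 6 (at least 2.10-fold). These limits cover counting error only.

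miR-325 and miR-384 rose on both arms from a few reads. Both hairpins lie within 1 annotated lncRNA (LOC103690870) in GRCr8, farther apart than the 10 kb used here to join neighbours. miR-325-5p had 7, 7 and 9 reads in P3 and 79, 79 and 51 in P9 (log2 fold change 3.28, SE 0.42, adjusted p = 0.000502). miR-325-3p had 8 reads in P3 together and 91 in P9 (log2 fold change 3.56, adjusted p = 0.00720). miR-384-3p went from 6 to 81 reads (3.77, adjusted p = 0.00454) and miR-384-5p from 6 to 70 (3.57, adjusted p = 0.0134). No P9 library overlapped a P3 library for any of the 4. miR-384-5p has the seed of the miR-30 family but made up at most 0.129% of the reads with that seed in any of the 6 libraries. The call was lost for miR-325-3p without P3 replicate 3 (adjusted p = 0.0543), for miR-384-3p without P3 replicate 1 (0.0533), and for miR-384-5p without P3 replicate 1, P3 replicate 3 or P9 replicate 1 (up to 0.0854).

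miR-143-3p, known from smooth muscle and other mesenchymal cells and hosted with miR-145 in the lncRNA Carmn, was the called miRNA with the most reads. It stood at 60461, 68796 and 56979 CPM in P3 and at 178130.0, 151322 and 133849 CPM in P9. The groups were well apart and P9 replicate 3 was the lowest of the P9 libraries. It accounted for 6.21% of the reads in P3 and 15.4% in P9 on average, and its log2 fold change was 1.35 (SE 0.24, adjusted p = 0.00348). The other arms of the cluster missed the threshold. miR-143-5p stood at 367, 231 and 307 CPM in P3 and at 1088, 794 and 279 CPM in P9 (log2 fold change 1.29, adjusted p = 0.0639), and miR-145-5p at 6598, 5815 and 5462 CPM against 15344, 14346 and 5999 CPM (1.04, adjusted p = 0.0788). In both, P9 replicate 3 lay within the P3 range, and without it both were called, at 1.66 (adjusted p = 0.000608) and 1.33 (adjusted p = 0.00308). With no filter both were called as well (0.0177 and 0.0382), and miR-143-5p also with DESeq2 (0.0165) and without FFSS replicate 1 (0.0496). miR-145-3p went from 896 ± 123 to 1563 ± 337 CPM (0.84, adjusted p = 0.186).

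miR-221-3p and miR-222-3p, made from 1 cluster and known to target the cell cycle inhibitor p27, rose together. miR-222-3p stood at 2925, 2307 and 2289.6 CPM in P3 and at 4440.5, 4499.8 and 5932 CPM in P9. miR-221-3p stood at 6653, 5187 and 5196 CPM in P3 and at 12872, 10397 and 7931 CPM in P9. P9 replicate 3 was the highest P9 library for miR-222-3p and the lowest for miR-221-3p, and neither overlapped P3. The log2 fold changes were 1.07 (SE 0.24, adjusted p = 0.0134) and 0.93 (SE 0.24, adjusted p = 0.0364). miR-222-5p (0.96, adjusted p = 0.0707) and miR-221-5p (0.66, adjusted p = 0.318) did not pass, though the groups did not overlap in either. miR-222-5p passed with DESeq2 (0.0106), with a filter at a mean of 50 counts (0.0393) and without FFSS replicate 1 (0.0496). The summed level of the shared seed went from 8186 ± 1205 to 15357 ± 1770 CPM. The call of miR-222-3p was lost without any 1 of the P3 libraries (adjusted p up to 0.0900). That of miR-221-3p was lost on leaving out FFSS replicate 3 or any P3 or P9 library but P9 replicate 3 (up to 0.153), and with libraries scaled by their size alone (0.0812).

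miR-146a-5p and miR-146b-5p, which share their seed and are known to dampen NF-kB signalling through Irak1 and Traf6, went opposite ways. miR-146a-5p stood at 401, 399 and 392 CPM in P3 and at 15.8, 15.5 and 47.6 CPM in P9. The P3 libraries were close together, and P9 replicate 3 was the highest of the P9 libraries. This amounted to a log2 fold change of -3.82 (SE 0.99, adjusted p = 0.0419). miR-146b-5p stood at 161, 173 and 168 CPM in P3 and at 349.6, 426 and 282 CPM in P9, a log2 fold change of 1.13 (SE 0.31, adjusted p = 0.0419). The summed level of the seed was 564 ± 6.18 CPM in P3 and 379 ± 56.8 CPM in P9, without overlap. In that sum the share of miR-146a-5p was 69.8% to 71.4% in the P3 libraries and 4.31%, 3.52% and 14.4% in the P9 libraries. Both calls were near the threshold. That of miR-146a-5p was lost without any 1 of the 6 P3 and P9 libraries (adjusted p up to 0.249, and 0.138 without P9 replicate 3), with upper-quartile scaling (0.0643) with no filter (0.212) and with 1 row kept of each pair of rows that share reads (0.0764). The miR-146b-5p call needed FFSS replicate 3 and every P3 and P9 library other than P9 replicate 3 (adjusted p up to 0.224 without 1 of them).

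The other miRNAs that rose were miR-181c-3p, miR-598-3p and miR-92b-3p. The level of miR-181c-3p was 2.25 ± 0.950 CPM in P3 and 9.26 ± 3.89 CPM in P9, with P9 replicate 3 at 5.14 CPM (log2 fold change 2.07, adjusted p = 0.00977), while miR-181c-5p, the arm with the family seed, went from 3.62 ± 0.862 to 7.44 ± 3.50 CPM with overlapping groups (1.05, adjusted p = 0.252). miR-598-3p stood at 28.3, 20.7 and 22.3 CPM in P3 and at 79.8, 62.5 and 39.5 CPM in P9 (1.40, SE 0.34, adjusted p = 0.0218). miR-92b-3p, which has the seed of miR-25 and miR-92a, went from 3.02 ± 0.903 to 7.09 ± 1.32 CPM (1.30, adjusted p = 0.0490) and made up under 1% of the reads with that seed, 0.641% at most. Its call was the least firm of the 32: it was kept in only 1 of the 9 fits that left out a library, the one without FFSS replicate 1 (adjusted p up to 0.179 in the others, and 0.0574 without P9 replicate 3). It was also lost with upper-quartile scaling, library size alone, no filter, limma-voom and with only the P3 and P9 libraries fitted (0.0519 to 0.0945). The call of miR-181c-3p was lost without P3 replicate 1 or 2 (up to 0.0646), and that of miR-598-3p on leaving out any P3 or P9 library but P9 replicate 3 (up to 0.114).

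Among the miRNAs that fell, the miR-195 and miR-497 cluster, members of the miR-15/16 family that restrain cyclins and other cell cycle genes, fell on every arm tested. miR-195-5p stood at 88.8, 52.8 and 120.1 CPM in P3 and at 17.6, 12.7 and 12.0 CPM in P9. The lowest P3 library, replicate 2, was still 3 times the highest P9 library, and P9 replicate 3 sat with the other P9 libraries. It had a log2 fold change of -2.58 (SE 0.36, adjusted p = 0.000652). miR-497-5p went from 32.9 ± 17.0 to 5.30 ± 1.53 CPM (-2.56, SE 0.45, adjusted p = 0.00346). miR-195-3p stood at 41.4, 28.2 and 41.2 CPM in P3 and at 2.63, 3.56 and 14.6 CPM in P9, with P9 replicate 3 nearest to P3 (-2.28, SE 0.56, adjusted p = 0.0234). Its call was lost on leaving out any P3 or P9 library but P9 replicate 3 (adjusted p up to 0.128) and with only the P3 and P9 libraries fitted (0.0603). The sum of miR-15b, miR-16, miR-195, miR-322 and miR-497 5p arms was 966 ± 286 CPM in P3 and 803 ± 346 CPM in P9, with overlap, and miR-16-5p held 74.3% to 82.2% of it in each library. miR-195-5p held 8.08% to 9.90% in the P3 libraries and 1.54% to 2.66% in the P9 libraries. Of the 10 family arms tested, these 3 were called lower and none higher, where 3.42% of all rows were called lower and 3.87% higher. The median log2 fold change of the 10 was 0.01, or between -0.07 and 0.00 under the other 4 scalings.

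miR-708, which in GRCr8 lies within Tenm4, fell on both arms. miR-708-3p stood at 83.1, 86.0 and 66.7 CPM in P3 and at 10.9, 11.7 and 22.1 CPM in P9, a log2 fold change of -2.31 (SE 0.43, adjusted p = 0.00395). miR-708-5p stood at 80.0, 33.1 and 73.3 CPM in P3 and at 22.1, 18.9 and 5.63 CPM in P9 (-1.94, SE 0.53, adjusted p = 0.0419). P9 replicate 3 was the highest of the P9 libraries for the 3p arm and the lowest for the 5p arm. On the log2 scale, 5p reads over 3p reads gave 1.01 and 0.69 in P9 replicates 1 and 2 and -1.96 in P9 replicate 3. In P3 it was -0.05, -1.38 and 0.14, with P3 replicate 2 apart from the other P3 libraries in the same direction. Both arms summed, the hairpin stood at 163, 119 and 140.0 CPM in P3 and at 30.5 ± 2.61 CPM in P9, with P9 replicate 3 at 27.8 CPM (-2.05, adjusted p = 0.00326). miR-28-5p, the other miRNA of the miR-708-5p seed, went from 119 ± 10.6 to 182 ± 43.0 CPM (0.65, adjusted p = 0.252). The sum of the pair was 181 ± 22.5 CPM in P3 and 198 ± 47.0 CPM in P9, with overlap, and the share of miR-708-5p in it 20.8% to 40.7% and 3.17% to 11.5%. The call of miR-708-5p was lost without 1 of P3 replicates 1 and 3, P9 replicates 1 and 2 and FFSS replicate 3 (adjusted p up to 0.150) and with a filter at a mean of 50 counts (0.0633).

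miR-378a, which lies within Ppargc1b, a gene of mitochondrial metabolism, fell on both arms. Its rows cannot be told from those of miR-3557, an annotated hairpin on the other strand of the same site. miR-378a-3p and miR-3557-5p were each listed at 2088, 948 and 2187 CPM in P3 and at 434, 313 and 473 CPM in P9. The lowest P3 library, replicate 2, was about 2-fold above the highest P9 library, and P9 replicate 3 was the highest of the P9 libraries. Their log2 fold change was -2.02 (SE 0.37, adjusted p = 0.00395). miR-378a-5p (-1.68, adjusted p = 0.0134) and miR-3557-3p (-1.67, adjusted p = 0.0144) had near-equal counts too, so the 4 rows stand for 1 measurement per arm. The calls of these last rows were lost without 1 of P3 replicates 1 and 3 and P9 replicates 1 and 2 (adjusted p up to 0.104). With 1 row kept of each pair of rows within 10% or 5 reads of each other in every library, 17 miRNAs were called higher and 14 lower. This set the pair of miR-378a-3p and miR-3557-5p to 1 row, lost miR-146a-5p (adjusted p = 0.0764) and gained miR-140-5p (-1.11, adjusted p = 0.0488). miR-378a-5p and miR-3557-3p did not meet that limit and were both still counted.

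miR-298, miR-1247, miR-452 and miR-3558 complete the set that fell. miR-298-5p dropped to 4.29 ± 1.34 CPM in P9 from 26.5 ± 11.8 CPM in P3 (log2 fold change -2.54, adjusted p = 0.000909) and miR-298-3p from 4.45 ± 1.48 to 1.23 ± 0.487 CPM (-1.75, adjusted p = 0.0274). The neighbouring miR-296-3p went from 6.09 ± 2.63 to 1.41 ± 0.606 CPM without overlap and missed the threshold (-2.03, adjusted p = 0.0617), which it passed with no filter (0.0221), DESeq2 (0.00815), only the P3 and P9 libraries fitted (0.0145) and without FFSS replicate 1 (0.0153). In the mouse this pair of hairpins lies in the imprinted Gnas domain. miR-1247-3p had 94, 56 and 93 reads in P3 and 3, 4 and 7 in P9 (-3.92, SE 0.66, adjusted p = 0.00234), the largest fall of all. Its 5p arm had 4.04, 2.26 and 1.58 CPM in P3 and 0.263, 0 and 1.71 CPM in P9, with P9 replicate 3 within the P3 range (-1.82, adjusted p = 0.290). miR-452-5p stood at 27.9, 18.9 and 36.7 CPM in P3 and at 7.62, 5.47 and 8.19 CPM in P9 (-1.91, SE 0.37, adjusted p = 0.00475). miR-224-5p, which in GRCr8 lies within Gabre and whose human counterpart neighbours miR-452, stood at 202, 167 and 198 CPM in P3 and at 38.9, 35.5 and 109 CPM in P9. It missed the threshold (-1.52, adjusted p = 0.0597) and passed without P9 replicate 3 (-2.33, adjusted p = 0.00028). It also passed with DESeq2 (0.0135), limma-voom (0.0217), no filter (0.00748), upper-quartile scaling (0.0338) and library size alone (0.0291). miR-3558-3p stood at 4.87, 2.66 and 4.06 CPM in P3 and at 0.394, 1.27 and 0.978 CPM in P9 (SE 0.55, adjusted p = 0.0453). Calls were lost for miR-298-3p on leaving out P9 replicate 1 or any P3 library (adjusted p up to 0.150), for miR-452-5p without P3 replicate 3 (0.0542), and for miR-3558-3p on leaving out FFSS replicate 3 or any P3 or P9 library but P9 replicate 3 (up to 0.163).

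With the reads of a hairpin's arms summed, 15 of 316 hairpins (4.75%) were called higher and 11 (3.48%) lower. All 23 hairpins with a called arm were among these 26. The other 3 were miR-490, from 8.49 ± 1.01 to 17.2 ± 3.09 CPM (log2 fold change 1.16, adjusted p = 0.0370), miR-30c-2, from 26.2 ± 3.85 to 53.3 ± 4.51 CPM (1.18, adjusted p = 0.0492), and miR-224, from 190.0 ± 19.3 to 61.3 ± 41.7 CPM (-1.49, adjusted p = 0.0465). For miR-224 P9 replicate 3 stood at 109 CPM, against 38.9 and 35.6 CPM in the other P9 libraries. The number called higher was 6, 9 and 8 without P3 replicates 1, 2 and 3, 8 without P9 replicate 1 or 2, and 25 without P9 replicate 3. Both arms were tested in 120 hairpins. In 9 both arms were called, in 7 one arm, and in all 16 the arms had the same sign, as they had in 93 of the 120. Both miR-378a and miR-3557, which cannot be told apart, are among the 9 and among the 11 hairpins called lower. With 1 row kept of each shared pair, 15 hairpins were called higher and 10 lower. Across the 120 hairpins the 5p and 3p log2 fold changes correlated at 0.883 (Pearson), a description, since the arms share their libraries and transcripts.

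**Figure D3:**
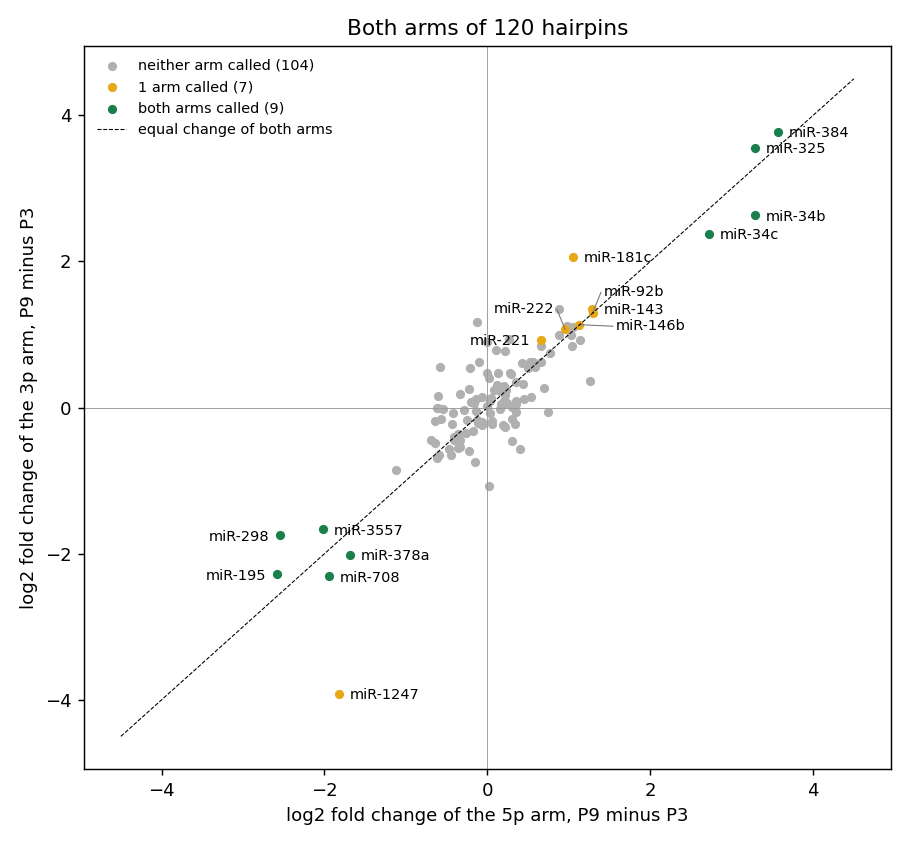
The log2 fold change of the 3p arm is plotted against that of the 5p arm for the 120 hairpins with both arms tested, with the dashed line marking equal change. The 9 green hairpins with both arms called and the 7 yellow ones with 1 arm called all lie where both axes have the same sign; miR-1247 lies farthest below the line, at -1.82 on the 5p and -3.92 on the 3p arm.

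No change in the balance between the arms of a hairpin passed the test. Of 89 hairpins with a mean of at least 20 reads on each arm, 0 (0%) passed limma's test of the balance of 5p over 3p reads (log2 ratio). At an unadjusted p under 0.05 there were 2, miR-181c, whose log2 ratio was 0.50, 1.18 and 0.56 in P3 and -0.26, -0.33 and -0.43 in P9 (difference -1.09, SE 0.47), and miR-672, at 6.83, 7.55 and 7.19 against 6.15, 6.33 and 5.88 (difference -1.07, SE 0.47). The adjusted p was 0.989 for both, and no other tool was run on these ratios.

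Neighbouring hairpins were then read together. In GRCr8, 202 of the tested miRNAs come from clusters with a neighbour within 10 kb on the same strand. Of these, 8 were called higher and 5 lower, with a median log2 fold change of 0.18, a count near the 7.29% called over all rows. Of 199 with an entry and no neighbour, 8 were called higher and 9 lower, with a median of -0.01. Only the clusters of miR-34b with miR-34c (4 of 4 arms higher, median 2.68) and of miR-195 with miR-497 (3 of 3 lower, median -2.56) had every tested arm called. That of miR-296 with miR-298 had 2 of 3 arms called lower (median -2.03), that of miR-221 with miR-222 had 2 of 4 higher (0.94), and those of miR-143 with miR-145 (1.16) and miR-181c with miR-181d (1.05) had 1 called arm each. The cluster of miR-132 with miR-212, miRNAs induced by Creb in many cells, had 4 positive arms, a median of 0.91 and no call. miR-212-5p, from 45.8 ± 12.8 to 86.3 ± 10.4 CPM, came nearest (0.98, adjusted p = 0.0961).

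Larger clusters had small shifts and no call. In the imprinted cluster from miR-379 to miR-410, 41 of 45 tested miRNAs had a positive log2 fold change, 40 with upper-quartile or library size scaling, and the median was 0.37, against 238 of 432 positive and a median of 0.07 over all annotated miRNAs tested. In 8 of the 45 all P9 libraries lay above all P3 libraries, where 11.2% of all rows did, and miR-758-3p had the largest value (1.10, adjusted p = 0.0947). The cluster of miR-322, miR-503, miR-542 and miR-450, which is known to restrain proliferation, had 11 of 12 positive with a median of 0.29. Its miR-322-5p stood at 14.9, 8.77 and 21.1 CPM in P3 and at 56.6, 39.0 and 11.3 CPM in P9, so that P9 replicate 3 lay within the P3 range (1.27, adjusted p = 0.186), and without that library it was called (1.68, adjusted p = 0.00613). The cluster of miR-23b, miR-27b and miR-24 had 6 of 6 negative (median -0.53), led by miR-23b-3p at 4839.8 ± 1129 and 2878 ± 588 CPM (-0.68, adjusted p = 0.0762). The cluster of miR-188, miR-362, miR-500, miR-501 and miR-532 had 6 of 6 negative (median -0.62). The miR-17-92 and related clusters, which promote proliferation, had no call among 14 tested miRNAs and a median of 0.05. Of these 14, 5 were negative, or 7 with upper-quartile or library size scaling.

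**Figure D4:**
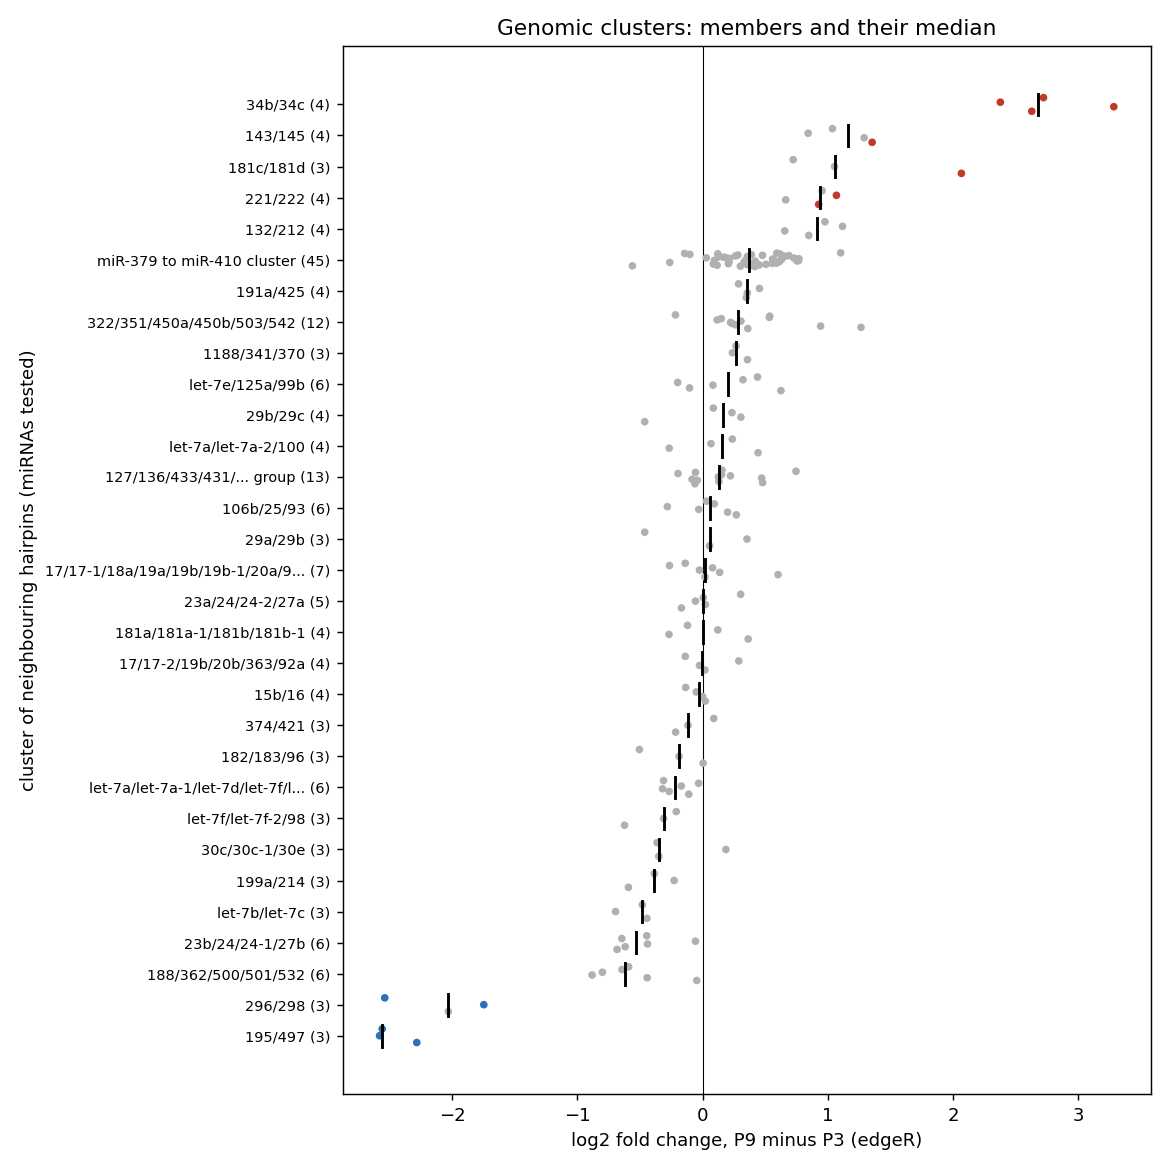
Each row is a cluster of hairpins within 10 kb of each other with at least 3 tested miRNAs, each point a miRNA's log2 fold change of P9 against P3, and the black bar the median; clusters of hairpins annotated on the opposite strand of others are left out. Red and blue points are called higher and lower; the cluster of miR-34b and miR-34c lies highest, with a median of 2.68, and that of miR-195 and miR-497 lowest, with -2.56, while most other clusters lie within 1 of zero.

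By abundance, the share of miRNAs called was 7.14%, 9.35%, 3.45%, 11.8% and 5.56% from the rarest class to the most abundant, against 7.29% over all rows, and values in the most abundant class leaned slightly down. Under 10 CPM, 8 of 154 miRNAs were called higher and 3 lower; from 10 to 100 CPM, 4 and 9 of 139; from 100 to 1000 CPM, 2 and 1 of 87; from 1000 to 10000 CPM, 2 and 2 of 34. Of the 18 miRNAs at 10000 CPM or more, which held 82.9% to 86.0% of the reads of each library, only miR-143-3p was called, and 15 had a negative log2 fold change under each of the 5 scalings. The 18 rows and their share of the reads include let-7f-5p (-0.31) and miR-3596d (-0.32), annotated on opposite strands, with near-equal counts. Reads of such a pair cannot be told apart, so the 18 are not all separate measurements. The medians of the 5 classes, from the rarest to the most abundant, were 0.14, 0.09, 0.03, -0.14 and -0.32. The median of the middle class was -0.01 with upper-quartile or library size scaling. The median SE of the fold change was 0.51 in the rarest class and 0.27 in the most abundant.

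The most abundant miRNA, miR-21-5p, a miRNA of proliferating and fibrotic tissue, stood at 169987, 170664 and 226294 CPM in P3 and at 274513, 318314 and 185700.0 CPM in P9. P9 replicate 3 lay within the P3 range (0.50, SE 0.32, adjusted p = 0.477). miR-148a-3p stood at 131881, 191894 and 141929 CPM in P3 and at 56168, 88006 and 155817 CPM in P9, again with P9 replicate 3 within the P3 range (-0.55, adjusted p = 0.506), and without it was called lower (-1.09, adjusted p = 0.0469). The let-7 family with miR-98, which accumulates in differentiating cells and represses growth genes, had a negative value in 9 of 9 members under each scaling, with a median of -0.27 and no call. let-7b-5p came nearest, at 12084, 10486 and 10184 CPM in P3 and 6974, 6078 and 6317 CPM in P9 (-0.70, SE 0.21, adjusted p = 0.0705), and passed with upper-quartile scaling (0.0338), DESeq2 (0.0483), only the P3 and P9 libraries fitted (0.0367) and without FFSS replicate 1 (0.0449). The summed level of the let-7 seed was 157368 ± 5742 CPM in P3 and 112046 ± 2883 CPM in P9, without overlap and with P9 replicate 3 at a level near that of the other P9 libraries. miR-26a-5p stood at 23036 ± 1912 and 14226 ± 612 CPM, also without overlap (-0.63, adjusted p = 0.0954). miR-27b-3p and miR-199a-3p were at 35418 ± 13504 and 30031 ± 11711 CPM in P9 against 57065 ± 14236 and 46489.7 ± 7501 CPM in P3, with overlap and with P9 replicate 3 the lowest at 22499.9 and 17831 CPM (adjusted p = 0.252 and 0.293).

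Of the cartilage markers, miR-140 was at lower levels in P9, on the edge of the threshold. miR-140-5p stood at 950.5, 615 and 912 CPM in P3 and at 414, 410.4 and 269 CPM in P9, without overlap (log2 fold change -1.12, SE 0.34, adjusted p = 0.0679). It passed with upper-quartile scaling (0.0409), no filter (0.0348), DESeq2 (0.0179), only the P3 and P9 libraries fitted (0.0271), 1 row kept of each shared pair (0.0488) and without FFSS replicate 1 (0.0187) or 2 (0.0322). miR-140-3p stood at 5455, 3119 and 5855 CPM in P3 and at 2999, 2585 and 2037 CPM in P9, also without overlap (-0.86, SE 0.27, adjusted p = 0.0763). miR-455-3p (-0.35, adjusted p = 0.596) and miR-455-5p (-0.26, adjusted p = 0.765) overlapped between the groups. All 4 were negative under each scaling, with a median of -0.61, and 0 of 4 were called in the fit of all libraries, against 7.29% of all rows.

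Lists drawn from what is known of senescence and inflammation were mixed. Of 14 tested miRNAs reported as higher in senescent cells, 3 were called higher (miR-34b-5p, miR-34c-5p and miR-146b-5p), 1 was called lower (miR-146a-5p) and 10 did not pass, where 3.87% and 3.42% of all rows were called higher and lower. Their median log2 fold change was 0.14, with 5 of the 14 negative, or 6 with library size scaling. Among 11 tested miRNAs of NF-kB signalling and inflammation, miR-146b-5p was called higher and miR-146a-5p lower, and the median was 0.70. miR-155-5p stood at 216, 249 and 212 CPM in P3 and at 414, 449.6 and 336 CPM in P9, without overlap (0.88, adjusted p = 0.295). miR-31a-5p, whose human counterpart lies near CDKN2A, stood at 407, 232 and 363 CPM in P3 and at 859, 657 and 273 CPM in P9 (0.88, adjusted p = 0.212), and without P9 replicate 3 was called higher (1.21, adjusted p = 0.00864). Among the 5 tested miRNAs of the Hox clusters none was called. miR-196b-5p, at 0.476, 1.86 and 0.677 CPM in P3 and 2.23, 3.05 and 5.14 CPM in P9, came nearest (1.85, adjusted p = 0.0824), and passed with DESeq2 (0.0489) and without P3 replicate 2 (2.72, adjusted p = 0.0328).

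P9 replicate 3 differed from the other P9 libraries in many miRNAs besides those called. Of 169 annotated miRNAs of at least 50 CPM, 44 lay more than 1 on the log2 scale from the mean of P9 replicates 1 and 2. Between P9 replicates 1 and 2 there were 2 such miRNAs, and for P3 replicates 1, 2 and 3 against the mean of the other P3 libraries 0, 6 and 4. The highest against the other P9 libraries were miR-149-5p, miR-99a-5p, miR-151-3p, miR-1b and miR-674-3p. miR-149-5p stood at 750.1, 551 and 572 CPM in P3 and at 66.6, 68.0 and 394 CPM in P9 (log2 fold change -1.68, adjusted p = 0.131), and without P9 replicate 3 was called lower (-3.18, adjusted p = 2.39e-05). miR-99a-5p stood at 45586, 66342 and 35842 CPM in P3, at 23009 and 27543 CPM in P9 replicates 1 and 2, and at 118982 CPM in P9 replicate 3, the highest of the 6. miR-1b, a striated muscle marker, was at 112 to 126 CPM in the other 5 libraries and at 462 CPM in P9 replicate 3, and miR-133a-3p at 8.24 to 10.9 and 40.4 CPM, unlike miR-499-5p and miR-206-3p given above. The lowest were miR-106b-5p, miR-494-3p, miR-374-5p, miR-143-5p and miR-20a-5p. miR-106b-5p stood at 53.4, 32.8 and 81.6 CPM in P3 and at 106, 65.6 and 21.2 CPM in P9.

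Over the same 169 miRNAs, the deviation of P9 replicate 3 from the other P9 libraries correlated with that of P3 replicate 2 from the other P3 libraries at a Spearman rho of 0.63. With that of P3 replicate 3 rho was -0.69, and with that of P3 replicate 1 -0.07. These are descriptions across miRNAs, and the P3 deviations share their libraries with each other. The correlation of the P9 replicate 3 deviation with the GC content of the mature sequence was 0.18 over the 158 of these miRNAs with a sequence (93.5%). Its median was -0.35 over the 13 miRNAs under 35% GC and 0.45 over the 19 at 55% or more. For the deviations of P3 replicates 1, 2 and 3 the correlation with GC content was 0.49, -0.18 and -0.09, so the largest was that of a P3 library. Of the 20 annotated miRNAs called without P9 replicate 3 but not in the same fit of all libraries, 10 were higher and 10 lower. In 12 of them P9 replicate 3 lay within the P3 range, and in 3 beyond P3 on the other side. Examples of the last are miR-151-3p, at 1372, 1361 and 834 CPM in P3, 539 and 560.2 CPM in P9 replicates 1 and 2 and 2132 CPM in P9 replicate 3, and miR-212-3p, whose fold change without P9 replicate 3 was 1.52 (adjusted p = 0.00864). Also among the 20 was miR-30a-5p, at 1017, 792 and 1205 CPM in P3 and 2582, 2453 and 981 CPM in P9. Its log2 fold change was 1.34 without P9 replicate 3 (adjusted p = 0.00394) and 1.03 with all libraries (0.0985). With all libraries and no filter it passed (0.0450). miR-320-3p stood at 634, 558 and 485 CPM in P3 and at 257, 225 and 461 CPM in P9. It was at -1.20 without P9 replicate 3 (adjusted p = 0.00788) and at -0.74 with all libraries (0.252).

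**Figure D5:**
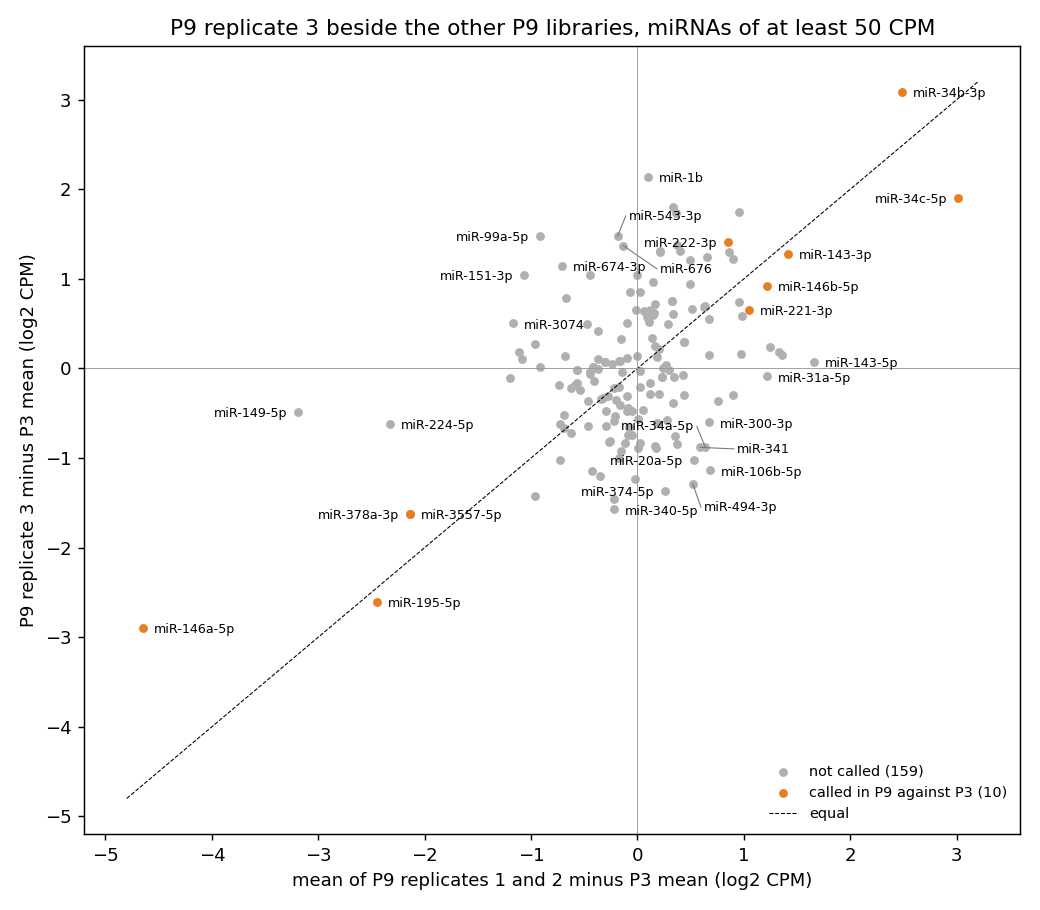
For 169 miRNAs of at least 50 CPM, the log2 level of P9 replicate 3 minus the P3 mean (vertical axis) is plotted against the mean of P9 replicates 1 and 2 minus the P3 mean (horizontal axis), with called miRNAs in orange and the dashed line marking equal change. The 10 called miRNAs lie where both axes have the same sign; miR-149-5p and miR-224-5p lie far to the left, between -1 and 0 on the vertical axis, and miR-1b lies near 0 on the horizontal axis and near 2 on the vertical.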

How the data were processed

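The authors deposited 1 table of miRNA reads for 9 libraries. Per the labels' protocols, total RNA was extracted with TRIzol and ligated to adaptors, and inserts were read in single-end runs. The submitters' processing notes name Bowtie and the build Rnor_6.0. How reads matching several miRNAs were assigned is not stated there. The read count columns hold whole numbers per miRNA as deposited by the authors, with no normalization, and were used for every result. The TPM columns, which the authors deposited beside them and scaled to each library's total, were not used. Columns of no labelled sample numbered 0.

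Counts of all 9 libraries were fitted with edgeR 4.0.16 in R 4.3.3 (filterByExpr, TMM factors, robust quasi-likelihood fit, 1 coefficient per group), and the contrast P9 minus P3 was adjusted by the Benjamini-Hochberg method over the 439 rows kept, 7 of them predicted miRNAs of which 0 were called. Each adjusted p in the text comes from this fit unless another fit or a left-out library is named with it. The SE beside an edgeR fold change is the size of that change over the square root of the test's F statistic. It is therefore not a measure independent of the p-value. Those of hairpin sums come from the same test over the 316 hairpins tested. Those of arm ratios come from limma 3.58.1 on log2 ratios after adding 0.5 to each arm. The main edgeR fit and the arm ratio fit were first run on simulated counts with known changes. Those counts had the same spread in every row and no library that stood apart, unlike these data. The alternatives were not run on them. The text names every called miRNA, members of chosen lists and clusters, the most abundant rows and those nearest the threshold or farthest off in P9 replicate 3. Members and lists were chosen with earlier results of these data known. Alternatives were DESeq2 1.42.0, limma-voom, other scalings and filters, a replicate block, fewer libraries and merged rows.

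The table holds 29 pairs of rows with counts equal within 10% or 5 reads, 27 of them reverse complements annotated on opposite strands, so their reads cannot be told apart. The second rows of these pairs held 5.44% to 8.61% of a library's reads. Neighbours and host genes come from RefSeq GRCr8, a different build from that of the table, so no coordinates are given. A CPM value covers counting error that is small for abundant rows, while rows of under 10 reads in a group rest on few molecules, and amplified reads are not independent molecules.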

Additional observations from a re-analysis of the deposited data

How the results depend on the processing

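No called miRNA changed direction under any alternative. Besides the fits that left out 1 of the 9 libraries, 12 alternatives were run, among them the fit of only P3 and P9 without P9 replicate 3. Of the 32 calls, 24 were kept in every one of these alternatives that tested their row, and 8 were lost in at least 1. A row removed by a filter or by the merging of shared pairs was not tested there and did not count as lost. Leaving out 1 of the 9 libraries gave between 8 and 26 miRNAs called higher, between 7 and 25 called lower and between 6 and 25 hairpins called higher, the highest values each without P9 replicate 3. With only P3 and P9 fitted and P9 replicate 3 left out, the spread came from 5 libraries and 50 miRNAs were called higher and 46 lower. DESeq2 called 25 higher and 21 lower, the fit with no filter 22 and 19, and limma-voom 16 and 17. Scaling moved the median of all rows between 0.006 and 0.064. No arm ratio was called under any alternative run.

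The fit with the replicate number as a block called 14 miRNAs higher and 13 lower, and 11 and 10 hairpins. It took the calls of miR-298-3p (adjusted p = 0.0625), miR-221-3p (0.0723), miR-146a-5p (0.0889), miR-146b-5p (0.0723), miR-708-5p (0.0722), miR-3558-3p and miR-92b-3p (both 0.1002) past the threshold. Equal numbers gave no sign of pairing the libraries, since the deviations of equal-numbered P3 and P9 libraries correlated at 0.06, -0.28 and -0.44. Pairing under other numbers was not tested. As given above, the deviation of P9 replicate 3 correlated with those of P3 replicates 1, 2 and 3 at a Spearman rho of -0.07, 0.63 and -0.69. Depth limits the miRNAs of few reads: miR-34b-5p, miR-130b-5p, miR-325-3p and both arms of miR-384 had under 10 reads over the P3 libraries. Of the groups compared, only P9 could carry these rows past the filter on low counts.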

Other observations

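miR-31b, which has its own row beside miR-31a-5p, stood at 50.6, 27.1 and 45.5 CPM in P3 and at 128, 68.5 and 41.9 CPM in P9, and without P9 replicate 3 was called higher by edgeR (log2 fold change 1.27, adjusted p = 0.0411). miR-211-5p stood at 6.54, 7.31 and 5.30 CPM in P3, at 1.71 and 1.91 CPM in P9 replicates 1 and 2 and at 12.5 CPM in P9 replicate 3, the highest of the 6 libraries. miR-383-5p stood at 4.40, 2.39 and 1.35 CPM in P3 and at 0.131, 0.381 and 1.10 CPM in P9 (log2 fold change -2.15, adjusted p = 0.128). miR-30c-2-3p stood at 30.4, 25.3 and 22.9 CPM in P3 and at 55.8, 55.9 and 48.1 CPM in P9, without overlap (1.09, adjusted p = 0.0679), and was called with DESeq2 (0.0165), with only the P3 and P9 libraries fitted (0.0334) and without P9 replicate 3 (0.0448), FFSS replicate 1 (0.0209) or FFSS replicate 2 (0.0400).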
